A study of Mus musculus with 11 samples.

Results

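The 9 genes described here encode the sodium-absorbing machinery of the colonic surface and its closest regulators, and they were taken by symbol out of 54513 genes. They are Slc9a3 and Slc9a2, which encode the sodium/proton exchangers NHE3 and NHE2, Slc26a3, which encodes the chloride/bicarbonate exchanger DRA, Scnn1a, Scnn1b and Scnn1g, which encode the alpha, beta and gamma subunits of the epithelial sodium channel ENaC, Atp12a, which encodes the catalytic subunit of the colonic proton/potassium pump, Nedd4l, a ubiquitin ligase, and Hsd11b2, a corticosteroid-inactivating enzyme. The set was chosen by function and, in part, selected on the CPM of Slc9a3, which was high in knockout epithelium after colitis, where it stood at 750.8 to 1529 CPM (counts scaled to library size) against 128.4 to 155.8 CPM in wild type. That choice used the same libraries as the results below. For these 9 genes the comparison of genotypes after colitis, the comparison of colitis with baseline in the knockout and the interaction of genotype with colitis are therefore given as descriptions with no p-value, and where members past the threshold are counted in them nothing is read from the count. The comparison of genotypes at baseline is tested, as is that of colitis with baseline in wild type except for Slc9a3, whose wild-type colitis values entered the choice.

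Messenger RNA was sequenced from colonic intestinal epithelial cells that had been cleared of lymphocytes on Percoll, a density medium. The groups were DKO mice after dextran sulphate sodium (DSS DKO, n = 3), wild-type mice after DSS (DSS WT, n = 3), untreated DKO mice (baseline DKO, n = 3) and untreated wild-type mice (baseline WT, n = 2). DKO mice lack miR-181a2-b2 as well as miR-181a1-b1, microRNA clusters that are the only alleles the labels name, and DSS mice had drunk 2% DSS, a polymer that damages the colon lining, for 7 days with 2 days of recovery. Strain, age, sex and the colon segment taken are not given, and the labels name biological replicates but no mouse behind each library. The p-values below rest on the scatter among libraries, which may in part be technical.

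Absorption of salt in the colon runs along 2 routes. In the electroneutral route an apical sodium/proton exchanger works beside an apical chloride/bicarbonate exchanger, so that sodium chloride enters with no net charge, and NHE3 and DRA are its best known partners. In the electrogenic route, strongest in the distal colon, sodium enters through ENaC, which needs its alpha subunit to reach the membrane in quantity, and aldosterone acting on the mineralocorticoid receptor raises the channel's activity. The basolateral sodium pump removes the sodium in both routes, and loss of NHE3 or of DRA is known to cause diarrhoea.

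The microRNAs deleted in DKO and their matches in the transcripts of the 9 genes are shown first. The mature sequences below come from RefSeq on GRCm38.p6, with the seed, bases 2 to 8, in capitals. Mir181a-1 lies at chr1:137966468-137966490 and Mir181b-1 at chr1:137966650-137966673, Mir181a-2 at chr2:38852741-38852763 and Mir181b-2 at chr2:38853845-38853868, all on the plus strand.
miR-181a-5p: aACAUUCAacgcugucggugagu
miR-181b-5p: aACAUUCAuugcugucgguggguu

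Both microRNAs share the seed, whose DNA match is TGAATGT (7mer-m8), with a following A for the 8mer TGAATGTA and GAATGTA for the 7mer-A1. The longest annotated 3′ untranslated region of each gene (GENCODE M21 on GRCm38) was read on the transcript strand. Slc9a3, at chr13:74121457-74169442 on the plus strand, holds 3 matches in 2628 bases, counted once each with an 8mer not counted again as a 7mer. Scnn1g, at chr7:121734479-121768475 on the plus strand, holds 1 match in 926 bases. The other 7 genes hold 0. Each match is printed with 10 bases on either side and the matching bases in capitals, and is named by the position of its first base in the region.
Slc9a3, 8mer at 2208: taaaatcctaTGAATGTAtttccttagg
Slc9a3, 7mer-A1 at 1090: aagagtagggGAATGTAggaacccact
Slc9a3, 7mer-A1 at 2193: ttgtacaataGAATGTAaaatcctatg
Scnn1g, 7mer-m8 at 784: aatgtgtgtaTGAATGTgtatatatgt

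An 8mer stood in 5.57% of the 19921 untranslated regions of at least 100 bases, and in 9.03% of the 2714 regions of 2102 to 3285 bases, a length close to that of Slc9a3. Regions with 3 or more matches made up 2.28% of that length class. For lengths close to that of Scnn1g, 16.5% of 2944 regions held a match of any kind. A match is a string in the annotated sequence, and binding was not measured. What part the matches have in any difference between genotypes was not tested.

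Promoters are printed for 3 of the 4 genes with a RefSeq entry (GRCm38.p6, the 250 bases before the annotated start). The fourth, that of Scnn1g, is not printed, and its matches are given below. Capitals mark GGGCGG on either strand (CCGCCC on the minus strand) and TATAAA. Both were searched on both strands.
Slc9a3, chr13:74121163-74121412, plus strand: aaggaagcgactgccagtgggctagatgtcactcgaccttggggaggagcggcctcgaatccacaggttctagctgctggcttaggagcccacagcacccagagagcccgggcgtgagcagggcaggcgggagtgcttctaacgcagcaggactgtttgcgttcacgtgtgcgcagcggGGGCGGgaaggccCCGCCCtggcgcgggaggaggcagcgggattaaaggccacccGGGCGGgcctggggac
Scnn1b, chr7:121864788-121865037, plus strand: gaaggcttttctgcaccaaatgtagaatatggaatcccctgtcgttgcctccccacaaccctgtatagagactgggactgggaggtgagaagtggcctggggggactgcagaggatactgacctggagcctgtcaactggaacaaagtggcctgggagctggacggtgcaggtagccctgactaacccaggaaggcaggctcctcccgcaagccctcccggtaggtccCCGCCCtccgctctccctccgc
Slc26a3, chr12:31437969-31438218, plus strand: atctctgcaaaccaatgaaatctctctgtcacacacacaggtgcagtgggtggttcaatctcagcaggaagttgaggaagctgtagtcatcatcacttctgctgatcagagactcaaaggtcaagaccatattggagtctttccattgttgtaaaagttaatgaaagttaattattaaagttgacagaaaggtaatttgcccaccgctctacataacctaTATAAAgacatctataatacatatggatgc

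The first motif is the core of the GC box and the second that of the TATA box. The Slc9a3 window holds the GC box core at 3 places, 71, 58 and 16 bases before the start, and the Scnn1b window at 1 place, 22 bases before it. The Scnn1g window holds it at 2 places, 98 and 67 bases before the start, and holds 0 TATA box cores. The Slc26a3 window holds 0 GC box cores and 1 TATA box core, 30 bases before the start. Across 32851 promoter windows of the same length, 32.7% held the GC box core at 1 or more places and 16.7% at 2 or more. The TATA box core was held by 12.4%. AGAACA, part of the corticosteroid response element, was found in 16.1% of all windows and in 0 of the 4 windows of these genes.

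The 11 libraries held 41631951 to 52761900 counts, and all 9 genes passed the low-count filter that left 19267 genes for testing. Epithelial markers such as Epcam and Vil1 were abundant in every group, with summed levels of 15530 to 16110 CPM in DSS DKO, 16030 to 17380 in DSS WT, 17920 to 20620 in baseline DKO and 15050 to 16680 in baseline WT. Ribosomal RNA rows took 23.05% and 8.46% of the counts of baseline DKO replicates 1 and 2, against 0.128% to 1.59% elsewhere. Every DSS library had a female pattern of sex-linked genes (Xist at 633 to 906 CPM) and every baseline library a male one (6.75 to 14.5 CPM), so sex and DSS cannot be told apart in any comparison of DSS with baseline. In bulk RNA, fewer cells of a type and less RNA per cell cannot be told apart. Genotype comparisons hold treatment and sex pattern fixed. DKO was checked against no targeted transcript, since the deleted microRNAs are too short for these libraries.

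Slc9a3 was the member that stood furthest apart. It measured 750.8, 985.3 and 1529 CPM in DSS DKO, against 155.8, 128.4 and 139.2 CPM in DSS WT, 243.6, 223.5 and 202.2 CPM in baseline DKO, and 249.9 and 196.6 CPM in baseline WT. Every DSS DKO library lay above every other library, and the lowest of them was 5.32 times the DSS WT mean. Its log2 fold change in DKO against WT after DSS was 2.95 ± 0.23 (standard error), which is 7.71-fold. Without DSS DKO replicate 3, the highest library, it was 2.62.

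At baseline the genotypes had equal Slc9a3 within error, with a log2 fold change of -0.00 ± 0.24 and adjusted p = 1 (edgeR's quasi-likelihood test, adjusted over all genes tested by the Benjamini-Hochberg method, here and for every adjusted p below unless DESeq2 is named). After DSS the genotypes stood on opposite sides of their baselines. DSS DKO stood 2.29 ± 0.23 above baseline DKO on the log2 scale, while DSS WT stood below baseline WT with a log2 fold change of -0.66 ± 0.24 and no overlap between the groups. That difference is given with no test. The interaction, the difference between the genotype effects after DSS and at baseline, was 2.95 ± 0.32.

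Slc9a2, whose product NHE2 sits on the same apical membrane, had the same arrangement on a smaller scale. It measured 315.9, 363.9 and 431.1 CPM in DSS DKO, against 240.9, 212.3 and 230.9 CPM in DSS WT. The groups did not overlap, and the log2 fold change was 0.70 ± 0.13. Baseline levels were 331.8, 310.0 and 279.9 CPM in DKO and 303.4 and 304.0 CPM in WT, with a log2 fold change of 0.02 ± 0.14 (adjusted p = 1). DSS DKO overlapped baseline DKO, with a log2 fold change of 0.27 ± 0.12.

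In WT, Slc9a2 fell after DSS, with a log2 fold change of -0.41 ± 0.14 (adjusted p = 0.037) and lower values in 3 of 3 DSS libraries than in either baseline library. The call was lost when any of 5 libraries was left out, with adjusted p of 0.134 and 0.125 without baseline WT replicates 1 and 2, 0.129 and 0.0861 without DSS WT replicates 2 and 3, and 0.0529 without DSS DKO replicate 2. It was also lost when libraries were scaled to equal epithelial markers (log2 fold change -0.17).

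Slc26a3, the chloride partner of the electroneutral route, had the opposite sign after DSS. It measured 388.3, 369.8 and 467.0 CPM in DSS DKO, against 690.6, 502.6 and 513.5 CPM in DSS WT. The ranges did not overlap, and the log2 fold change was -0.48 ± 0.16. It was -0.31 without DSS WT replicate 1, the highest DSS WT library. Baseline levels were 709.2, 880.3 and 640.2 CPM in DKO and 729.0 and 794.6 CPM in WT, with a log2 fold change of -0.04 ± 0.18 (adjusted p = 1).

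The DSS WT libraries all lay below the baseline WT libraries in Slc26a3, with a log2 fold change of -0.42 ± 0.18 that was not called (adjusted p = 0.0845). The call was made without DSS WT replicate 1 (log2 fold change -0.60, adjusted p = 0.0203). In DKO the difference between DSS and baseline was -0.86 ± 0.16, again with no overlap, and -0.39 when libraries were scaled to equal epithelial markers, a scaling that moved the median of all genes in that comparison by 0.457.

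The ratios of Slc9a3 to Slc9a2 and to Slc26a3 within a library rest on the high level of Slc9a3 in DSS DKO. They are given as descriptions, since that level entered the choice of the genes. Per kilobase of exon, Slc9a3 was at 3.02, 3.44 and 4.5 times the level of Slc9a2 in DSS DKO, against 0.821, 0.768 and 0.765 times in DSS WT. Per kilobase, the ratio of Slc9a3 to Slc26a3 was 2.24, 3.08 and 3.79 in DSS DKO, against 0.261, 0.296 and 0.314 in DSS WT and 0.286 to 0.397 at baseline in both genotypes. Slc26a3 was thus the more abundant transcript in every library outside DSS DKO and the less abundant in every library of it. With the longest transcript as the length, the second ratio was 1.31 to 2.21 in DSS DKO and 0.153 to 0.183 in DSS WT.

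**Figure D1:**
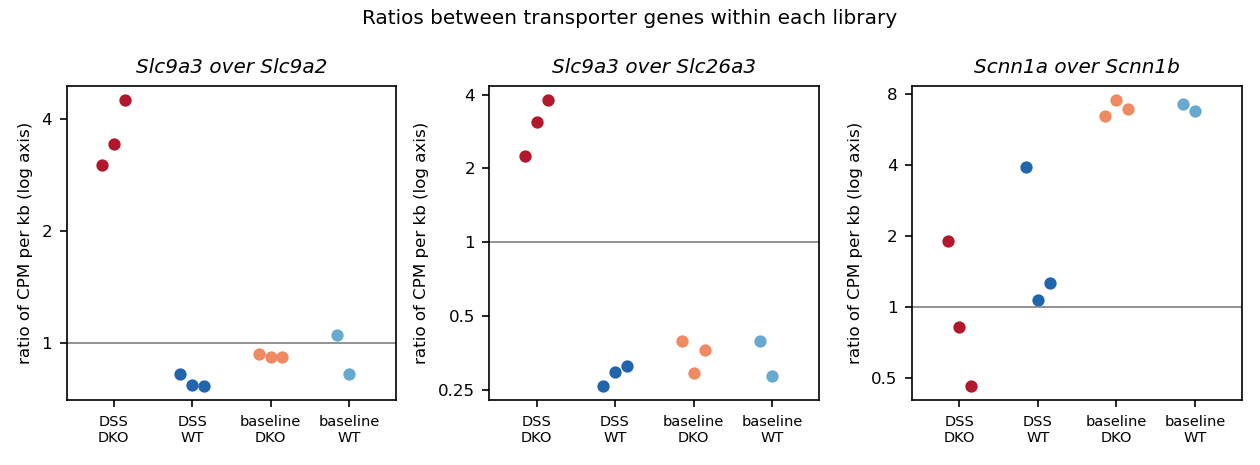
Ratio of levels in CPM per kilobase of exon (log axis) between pairs of genes, 1 point per library, with a line at equal levels. The DSS DKO libraries have Slc9a3 at 3.02 to 4.5 times Slc9a2 and 2.24 to 3.79 times Slc26a3, above every other library, and Scnn1a over Scnn1b is lower in all DSS libraries (0.465 to 3.9) than in all baseline libraries (6.44 to 7.5).

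The ENaC subunits did not follow 1 pattern. Scnn1a, the alpha subunit, was low after DSS in both genotypes, with 40.41, 24.89 and 15.74 CPM in DSS DKO, 33.37, 12.04 and 13.83 CPM in DSS WT, 128.2, 151.9 and 131.7 CPM in baseline DKO, and 136.1 and 132.8 CPM in baseline WT. Every DSS library lay far below every baseline library. In WT it fell with a log2 fold change of -2.77 ± 0.46 (adjusted p = 0.00256), 6.81-fold lower after DSS, and the call was made in every one of the 20 alternatives. In DKO the log2 fold change between DSS and baseline was -2.34 ± 0.43.

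Between genotypes Scnn1a overlapped after DSS, where the log2 fold change was 0.45 ± 0.41. It ran from 0.04 without DSS DKO replicate 1 to 1.07 without DSS WT replicate 1. At baseline it was 0.03 ± 0.46 (adjusted p = 1).

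Scnn1b, the beta subunit, differed by genotype after DSS. It measured 13.54, 19.26 and 21.57 CPM in DSS DKO, against 5.447, 7.14 and 6.936 CPM in DSS WT, so the lowest DSS DKO library was well above the highest DSS WT one. The log2 fold change was 1.48 ± 0.19, which is 2.78-fold, and it ran from 1.33 to 1.65 as single libraries were left out. Baseline libraries were close together, at 12.16 to 12.9 CPM in DKO and 12.0 and 12.51 CPM in WT (log2 fold change 0.04 ± 0.20, adjusted p = 1).

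In WT, Scnn1b fell after DSS with a log2 fold change of -0.91 ± 0.20 (adjusted p = 0.0056), lower in 3 of 3 DSS libraries. The call was made in every alternative but the scaling to equal epithelial markers (log2 fold change -0.65, adjusted p = 0.0668). In DKO every DSS library lay above every baseline library, with a log2 fold change of 0.53 ± 0.18, and the interaction was 1.44 ± 0.27. Scnn1b therefore had the same arrangement as Slc9a3 and Slc9a2, with WT below baseline after DSS and DKO at or above it.

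Scnn1g, the gamma subunit, was near the limit of detection. Its levels were 2.757, 1.823 and 1.27 CPM in DSS DKO, 1.528, 1.081 and 1.138 CPM in DSS WT, 0.805, 1.937 and 0.544 CPM in baseline DKO, and 0.667 and 0.425 CPM in baseline WT. Genotypes overlapped after DSS (log2 fold change 0.65 ± 0.44) and at baseline (0.99 ± 0.54, adjusted p = 1). Baseline DKO replicate 2 alone carried most of the baseline difference, since without it the log2 fold change was 0.28. DSS against baseline in WT gave a log2 fold change of 1.19 ± 0.53, not called (adjusted p = 0.105). It passed the threshold in 4 of 20 alternatives, among them the scaling to equal epithelial markers (adjusted p = 0.0375). Scnn1g lies 96563 bases before Scnn1b on chromosome 7 and the same strand.

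The proportion of the subunits differed between DSS and baseline. Per kilobase of exon Scnn1a stood at 1.9, 0.823 and 0.465 times Scnn1b in DSS DKO and 3.9, 1.07 and 1.27 times in DSS WT, against 6.44 to 7.5 times in the 5 baseline libraries. All baseline libraries were above all DSS libraries.

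Atp12a, the colonic proton/potassium pump of the distal colon, was the most variable member. It measured 151.2, 25.58 and 7.506 CPM in DSS DKO and 281.9, 129.1 and 88.51 CPM in DSS WT, against 119 to 135.9 CPM in baseline DKO and 125.4 and 110.0 CPM in baseline WT. The coefficient of variation was 127% in DSS DKO and 61.3% in DSS WT, against 7.33% in baseline DKO and 9.23% in baseline WT. The log2 fold change after DSS was -1.44 ± 0.87 with overlapping groups. Its size depended on single libraries, since it was -3.33 without DSS DKO replicate 1, the only library of its group within the DSS WT range, and -0.81 without DSS WT replicate 1. The baseline log2 fold change was 0.14 ± 0.96 and that of DSS in WT 0.50 ± 0.97, with adjusted p of 1 and 0.723. The antisense transcript Gm10873 shares 557 exon bases with Atp12a and had 6 to 125 counts, and with no strand setting given their reads cannot be told apart.

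Nedd4l, which marks ENaC for removal from the membrane, had nearly the same level throughout, at 86.78, 92.66 and 89.67 CPM in DSS DKO, 85.99, 83.8 and 85.63 CPM in DSS WT, 93.77 to 111 CPM in baseline DKO and 107.7 and 92.37 CPM in baseline WT. The genotype log2 fold changes were 0.08 ± 0.10 after DSS and 0.07 ± 0.11 at baseline (adjusted p = 1), and DSS in WT gave -0.23 ± 0.11 (adjusted p = 0.135). The last of these turned to 0.01 when libraries were scaled to equal epithelial markers. A330084C13Rik, an antisense transcript with 5 to 25 counts, shares 277 exon bases with it.

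Hsd11b2, which inactivates corticosterone and so leaves the mineralocorticoid receptor to aldosterone, stood at 170.7, 174.3 and 148.6 CPM in DSS DKO, against 140.0, 86.24 and 100.6 CPM in DSS WT. Baseline levels were 137.9 to 211.3 CPM in DKO and 122.9 and 111.7 CPM in WT. DKO lay above WT without overlap in both states, with log2 fold changes of 0.60 ± 0.20 after DSS and 0.48 ± 0.22 at baseline, where it was not called (adjusted p = 1). The value after DSS was 0.83 without DSS WT replicate 1. DSS against baseline in WT was -0.11 ± 0.22 (adjusted p = 0.736), and it turned to 0.11 when libraries were scaled to equal epithelial markers and to 0.04 without DSS WT replicate 2.

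**Figure D2:**
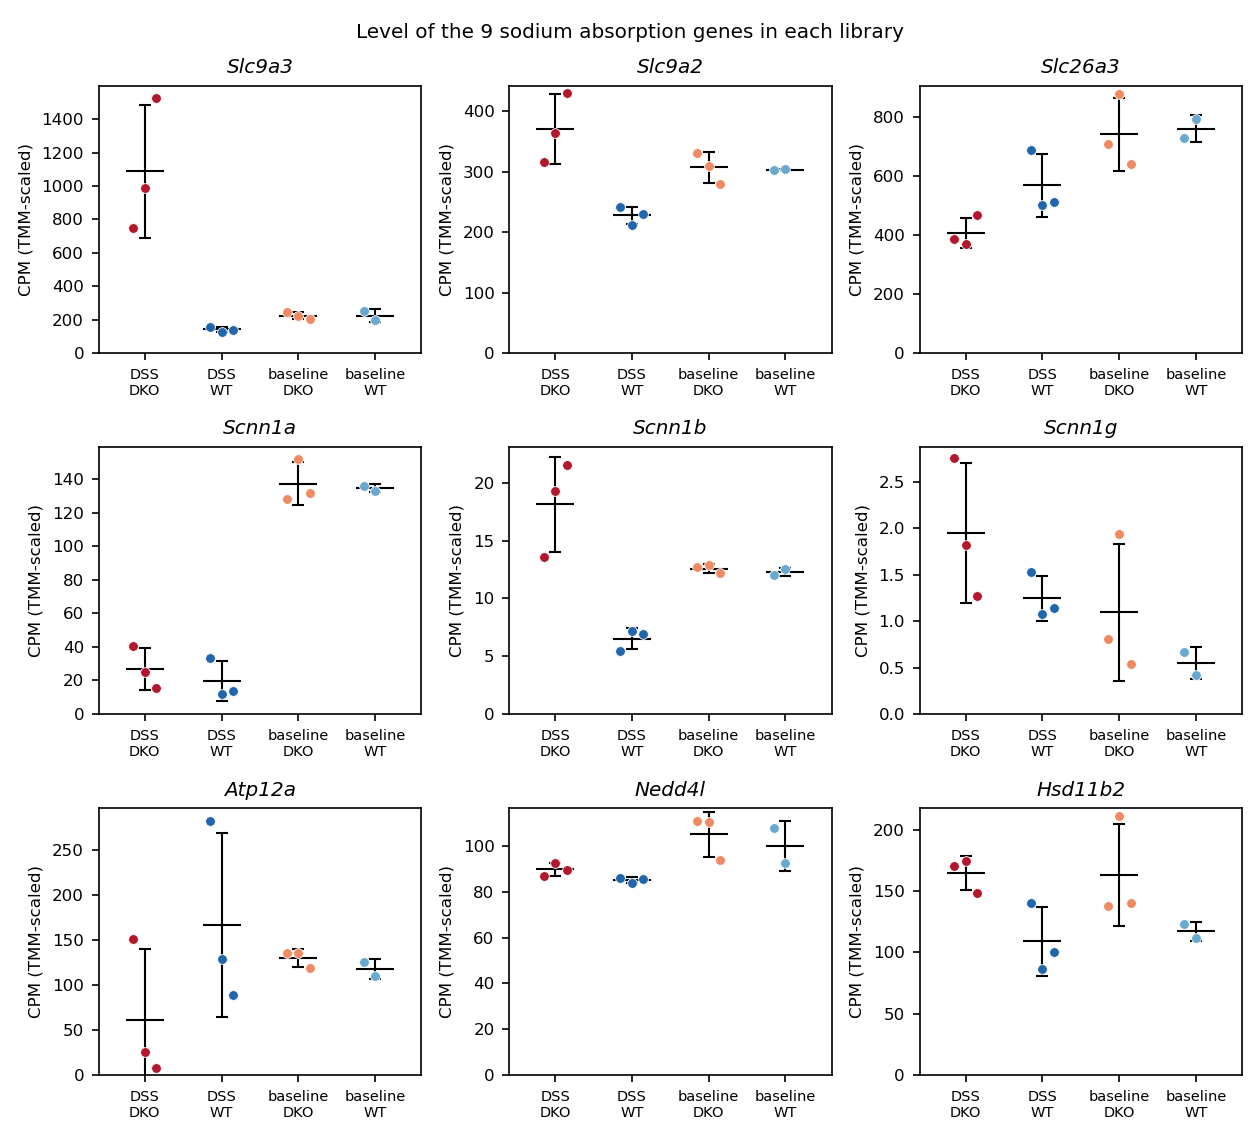
CPM (TMM-scaled, linear axes from 0) of each of the 9 genes in each library, with the mean and SD of the group in black (the lower SD bar of Atp12a in DSS DKO is cut at 0). Slc9a3 lies at 750.8 to 1529 CPM in DSS DKO and at or under 249.9 CPM elsewhere, and Scnn1a lies at or under 40.41 CPM in all DSS libraries and at or over 128.2 CPM in all baseline libraries.

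As a description only, in the comparison used to choose them (DKO against WT after DSS), 3 of the 9 genes were higher and 0 lower past the threshold, where 11.2% of all genes tested were called, 5.26% higher and 5.98% lower. The groups did not overlap for 6 of the 9, against 31.8% of all genes. At baseline 0 of 9 were called, 0 of 9 had an unadjusted p under 0.05, and 0.026% of all genes were called, 0.0104% higher and 0.0156% lower, with 751 genes at an unadjusted p under 0.05. The genotypes did not overlap at baseline for 1 of the 9, Hsd11b2, against 20.2% of all genes. DESeq2 also called 0 of the 9 at baseline. For DSS against baseline in WT, 0 were higher and 3 lower (Slc9a2, Scnn1a and Scnn1b) where 33.4% of all genes were called, 16.9% higher and 16.5% lower, so the share of members called is near the background. The WT groups did not overlap for 7 of the 9, against 63.5% of all genes. The counts for DSS against baseline in DKO and for the interaction rest on the libraries used in the choice and are likewise descriptions. In DKO 1 was higher and 2 lower, against 23.6% of all genes (12.6% higher and 11% lower), and 5 of the 9 did not overlap, against 39.9%. The interaction gave 2 higher and 0 lower, against 1.57% of all genes (0.773% higher and 0.794% lower). The median log2 fold change of the 9 was 0.59 in DKO against WT after DSS, 0.04 at baseline, -0.41 for DSS in WT and 0.01 for DSS in DKO, beside 0.03, 0.01, -0.01 and 0.01 over all genes tested. These comparisons share libraries with each other.

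**Figure D3:**
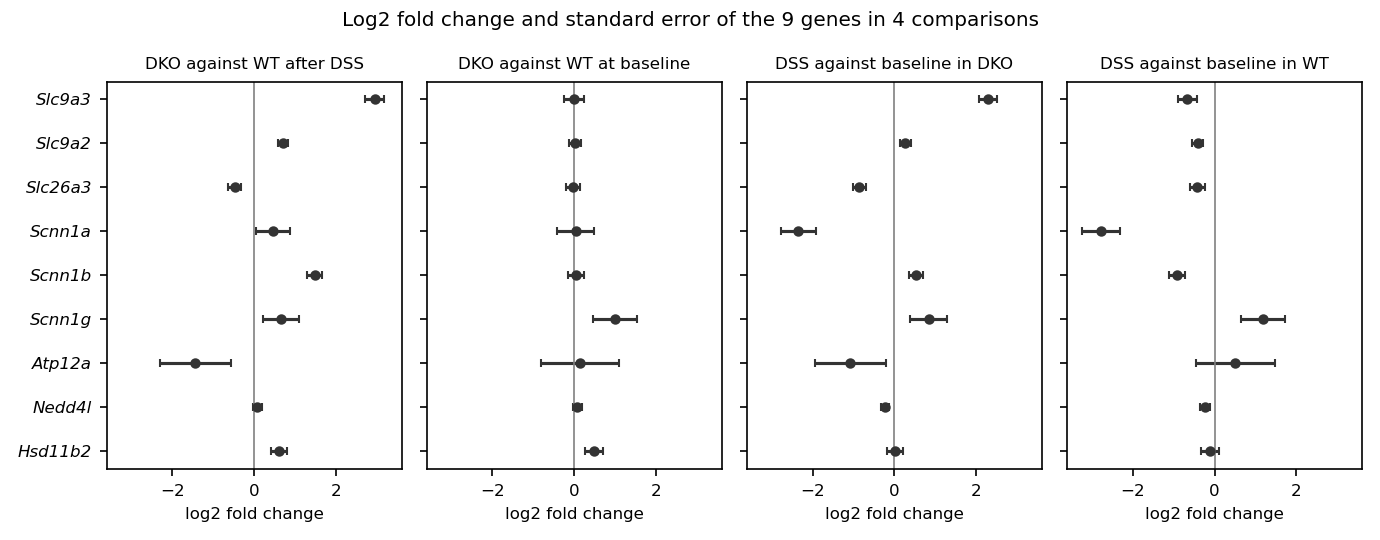
Log2 fold change (points) and standard error (bars) of the 9 genes in 4 comparisons, from edgeR's fit to all 11 libraries. Slc9a3 and Scnn1b stand to the right after DSS (2.95 and 1.48) and near 0 at baseline, and Scnn1a stands far to the left for DSS in both genotypes (-2.34 in DKO and -2.77 in WT).

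The order of levels among the genes, per kilobase of exon, is a description, since the level of Slc9a3 in DSS DKO entered the choice. The order differed in DSS DKO. There Slc9a3 came first at 198 ± 72.5 CPM per kb (SD, n = 3), followed by Hsd11b2 at 89.4 ± 7.57, Slc26a3 at 64.1 ± 8.11, Slc9a2 at 53 ± 8.28, Atp12a at 15.3 ± 19.5, Scnn1b at 6.88 ± 1.57, Scnn1a at 6.54 ± 3.02, Nedd4l at 5.08 ± 0.167 and Scnn1g at 0.652 ± 0.251. Neighbours from Atp12a through Nedd4l differed by less than the larger of their SDs, and the other neighbours by more. In DSS WT the order began with Slc26a3 at 89.3 ± 16.6, Hsd11b2 at 59.2 ± 15.1, Atp12a at 41.5 ± 25.4, Slc9a2 at 32.6 ± 2.08 and Slc9a3 at 25.6 ± 2.51, of which neighbours from Hsd11b2 through Slc9a2 differed by less than the larger of their SDs and the other pairs by more.

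At baseline both genotypes had the same order, Slc26a3, Hsd11b2, Slc9a2, Slc9a3, Scnn1a, Atp12a, Nedd4l, Scnn1b and Scnn1g, with Slc26a3 at 117 ± 19.4 CPM per kb in DKO (SD, n = 3) and 120 ± 7.28 in WT (SD, n = 2). Slc9a2 and Slc9a3 differed there by less than the larger of their SDs in both genotypes, and Scnn1a and Atp12a did so in DKO only. With the longest transcript as the length, Slc26a3 came second in DSS DKO at 118, above Hsd11b2 at 89.4, while Slc9a3 remained first at 213.

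Segment and cell type markers differed beside several of these results. The summed level of 5 distal colon markers (Hoxb13, Hoxa13, Hoxd13, Hoxd12 and Hoxd10; a sixth, Prac1, was not analysed here) was 115.3, 45.53 and 13.86 CPM in DSS DKO and 171.2, 131.8 and 90.48 CPM in DSS WT, against 166.1 to 209.9 CPM at baseline. Of the 5, 0 passed the test between genotypes after DSS, and Hoxd12 and Hoxd10 were at 0 in DSS DKO replicate 3. Within DSS DKO, Atp12a and Scnn1a were lowest and Slc9a3 and Scnn1b highest in the library with the fewest distal markers. DSS DKO replicate 1, whose distal sum lies inside the DSS WT range, had 750.8 CPM of Slc9a3, 13.54 CPM of Scnn1b and 315.9 CPM of Slc9a2, each above the highest DSS WT library (155.8, 7.14 and 240.9 CPM), and 388.3 CPM of Slc26a3, below the lowest (502.6 CPM). In the same library the proximal colon markers summed to 397.5 CPM, above the DSS WT range of 268.4 to 303 CPM. Its small intestine markers summed to 672 CPM, above the DSS WT range of 585.2 to 652.4 CPM. Of these, 1 marker, Slc10a2, made up 115.5 CPM, against 19.98 to 23.73 CPM in DSS WT. The other small intestine markers did not sum to more than in DSS WT. The part of the segment markers in these differences was not tested.

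The 6 proximal colon markers summed to 355.3 to 397.5 CPM in DSS DKO and 268.4 to 303 CPM in DSS WT, with 1 called higher (Osr2) and 0 lower. Of 16 measured small intestine markers, 6 rose and 3 fell in DSS DKO against DSS WT, and their sum was 672, 797.3 and 994.5 CPM in DSS DKO and 585.2 to 652.4 CPM in DSS WT. Of that sum, 1 gene, Slc10a2, made up 115.5 to 222.6 CPM in DSS DKO and 19.98 to 23.73 CPM in DSS WT. The part of the small intestine markers in the difference in Slc9a3 was not tested. Neutrophil markers summed to 156.8 to 220.7 CPM in DSS DKO and 49.72 to 57.11 CPM in DSS WT (5 of 7 rose), and lymphocyte markers to 38.79 to 66.85 CPM in DSS DKO and 127.4 to 138.1 CPM in DSS WT (8 of 11 fell). Markers of crypt base and dividing cells summed to 399.5 to 717.3 CPM in DSS DKO and 884.5 to 1048 CPM in DSS WT (5 of 9 fell), those of absorptive colonocytes to 17920 to 19690 CPM in DSS DKO and 19420 to 21000 CPM in DSS WT (3 of 15 rose and 1 fell), and 0 of 10 epithelial markers were called. Enteroendocrine markers summed to 338 to 578.3 CPM in DSS DKO and 262.4 to 318.3 CPM in DSS WT (2 of 6 rose and 1 fell). Of 9 fibroblast and smooth muscle markers 3 rose, and of 7 macrophage and 4 endothelial markers 0 were called.

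The summed goblet and tuft cell markers were lower in every DSS library than in any baseline library, beside the low Scnn1a of all DSS libraries. Goblet cell markers summed to 3906 to 4066 CPM in DSS DKO and 6644 to 8244 CPM in DSS WT, against 34630 to 39950 CPM in baseline DKO and 40340 to 40600 CPM in baseline WT. Of the 8, 2 fell in DSS DKO against DSS WT, and 6 fell after DSS in DKO and 3 in WT. Tuft cell markers summed to 6.664 to 11.34 CPM in DSS DKO and 9.396 to 15.2 CPM in DSS WT, against 42.23 to 51.3 CPM in baseline DKO and 45.1 to 52.75 CPM in baseline WT, and 5 of 5 fell after DSS in each genotype. Absorptive colonocyte markers summed to 22490 to 24980 CPM in baseline DKO and 21040 to 23470 CPM in baseline WT, above every DSS library. What part these cell types have in the members' differences was not tested.

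**Figure D4:**
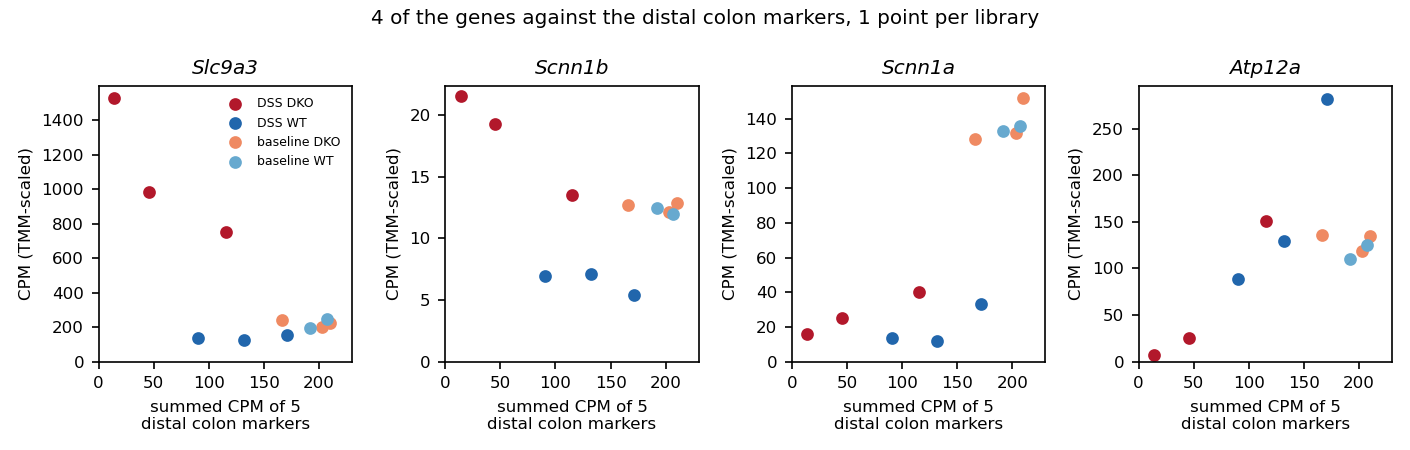
CPM of 4 of the genes (vertical axes) against the summed CPM of 5 distal colon markers (horizontal axes), 1 point per library, coloured by group. DSS DKO replicate 1, at 115.3 CPM of distal markers, lies among the DSS WT libraries (90.48 to 171.2 CPM) on the horizontal axis and above them in Slc9a3 and Scnn1b. Its proximal colon and small intestine marker sums, not drawn here, were also above those of DSS WT, the small intestine sum only through Slc10a2.

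The other genes of salt transport were read from 7 lists, of which 84 measured genes are not among the 9. In DKO against WT after DSS, 22 of them passed the threshold, 11 higher and 11 lower, and 9 of the 22 passed it in every alternative setting tried. At baseline 0 of the 84 passed. The lists were chosen with earlier results of these data known, so their counts are descriptions. Each list below is followed by its median log2 fold change, beside 0.03 over all genes tested, of which 11.2% were called, 5.26% higher and 5.98% lower.

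Among other sodium/proton exchangers and their partners, 3 of 14 rose and 1 fell (median 0.27). Slc9a4, an exchanger best known from stomach and kidney, was at 1.54, 2.37 and 1.72 CPM in DSS DKO and 0.216 to 0.459 CPM in DSS WT, a log2 fold change of 2.41 ± 0.35 (adjusted p = 0.00213, higher in 3 of 3 libraries), at a low level throughout. Prkg2, the cyclic GMP kinase known to inhibit NHE3, was at 69.72, 113.7 and 151.2 CPM in DSS DKO and 34.11 to 54.99 CPM in DSS WT (log2 fold change 1.32, adjusted p = 0.0156), and Slc9a8, another apical exchanger of the gut, at 64.83 to 79.82 CPM in DSS DKO and 46.31 to 52.18 CPM in DSS WT (0.55, adjusted p = 0.0105). Both calls were lost without DSS WT replicate 2, with adjusted p of 0.0627 for Prkg2 and 0.057 for Slc9a8, and that of Prkg2 also without DSS DKO replicate 2. Slc9a9, an endosomal exchanger, fell (log2 fold change -1.27, adjusted p = 0.0139), with its call lost without DSS WT replicate 3 (adjusted p = 0.0529) or 2. The scaffolds that hold NHE3 at the brush border were not called, with log2 fold changes of 0.10 for Slc9a3r1, 0.45 for Slc9a3r2 and 0.21 for Ezr.

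The basolateral sodium pump had 0 of 10 called (median 0.48). Atp1b1, a beta subunit of the pump, was at 1211 to 1262 CPM in DSS DKO and 944 to 1120 CPM in DSS WT (log2 fold change 0.28, adjusted p = 0.138), separated without a call.

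Mineralocorticoid signalling and ENaC control had 5 of 19 higher and 1 lower (median 0.01). Fkbp5, a corticosteroid-induced chaperone partner, was at 438.1, 669.8 and 920.1 CPM in DSS DKO and 180.1 to 199.7 CPM in DSS WT (log2 fold change 1.84 ± 0.21, adjusted p = 0.000799). Sgk1, the aldosterone-induced kinase that holds ENaC at the membrane and also activates NHE3, was at 292.5, 430.7 and 632.6 CPM in DSS DKO and 179.3 to 187.8 CPM in DSS WT (1.30, adjusted p = 0.0101), and Cnksr3, an aldosterone-induced scaffold of ENaC control, at 30.62, 45.25 and 65.17 CPM in DSS DKO and 16.39 to 22.59 CPM in DSS WT (1.23, adjusted p = 0.00728). All 3 were higher in every DSS DKO library than in any DSS WT library and were called in every alternative. Klhl3 rose (adjusted p = 0.0181) and Sgk2 rose (0.58, adjusted p = 0.0408), while Stk39 fell (-0.42, adjusted p = 0.0348). All 3 calls were lost without DSS DKO replicate 2 or DSS WT replicate 2 and those of Sgk2 and Stk39 in other leave-outs, with adjusted p of up to 0.0871 for Klhl3, 0.157 for Sgk2 and 0.15 for Stk39. The receptors themselves had log2 fold changes of -0.10 (Nr3c2, the mineralocorticoid receptor) and 0.01 (Nr3c1, the glucocorticoid receptor) and were not called. Tsc22d3, a glucocorticoid-induced factor, was at 58.21 to 80.21 CPM in DSS DKO and 74.69 to 88.62 CPM in DSS WT. Per1 was at 11.95 to 34.58 CPM in DSS DKO and 7.945 to 15.71 CPM in DSS WT. Neither was called, and corticosteroid signalling itself was not tested.

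The remaining lists held more genes that fell. Of 13 other anion exchangers and bicarbonate suppliers, 2 rose and 3 fell (median -0.01). Slc4a7, a sodium bicarbonate carrier, and the carbonic anhydrases Car2 and Car13 fell, with log2 fold changes of -0.47, -0.59 and -0.56 (adjusted p = 0.0132, 0.0252 and 0.0213). Slc4a2, a basolateral anion exchanger, and Slc26a4, at under 1 CPM, rose by 1.23 and 1.81 (adjusted p = 0.0482 and 0.0394). Each of these 5 calls was lost without DSS DKO replicate 2 and in other leave-outs.

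Of 12 chloride secretion and potassium channel genes, 0 rose and 2 fell (median 0.09). Ano1, a calcium-activated chloride channel, was at 52.99, 37.27 and 31.91 CPM in DSS DKO and 93.03 to 117.2 CPM in DSS WT (log2 fold change -1.37, adjusted p = 0.00244). Kcne3, a potassium channel subunit that sustains chloride secretion, was at 123.5, 60.96 and 48.48 CPM in DSS DKO and 211.6 to 221.2 CPM in DSS WT (-1.47, adjusted p = 0.0108, and 0.054 without DSS DKO replicate 2). Cftr, the main chloride channel, was at 258.2 to 367.8 CPM in DSS DKO and 267.2 to 330.7 CPM in DSS WT, with a log2 fold change of -0.03.

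Of 8 sodium-coupled nutrient carriers, 1 rose and 3 fell (median 0.09). Slc10a2, the apical bile acid carrier and also one of the small intestine markers, was at 115.5, 164.1 and 222.6 CPM in DSS DKO and 19.98 to 23.73 CPM in DSS WT (log2 fold change 2.90, adjusted p = 0.000744). Slc5a8, a sodium-coupled carrier of short-chain fatty acids, was at 205.8, 166.1 and 210.7 CPM in DSS DKO and 467.2 to 521.7 CPM in DSS WT (-1.37, adjusted p = 0.000139). Slc34a2, a phosphate carrier, fell by 1.45 on the log2 scale (adjusted p = 0.00153) and Slc6a14, an amino acid carrier, by 0.48 (adjusted p = 0.0311, not called in 5 of 11 leave-outs). Of 8 ENaC proteases and inhibitors, 0 rose and 1 fell (median 0.08), Tmprss2, at 561.6 to 671.4 CPM in DSS DKO and 914.3 to 1019 CPM in DSS WT (-0.66, adjusted p = 0.00387).

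**Figure D5:**
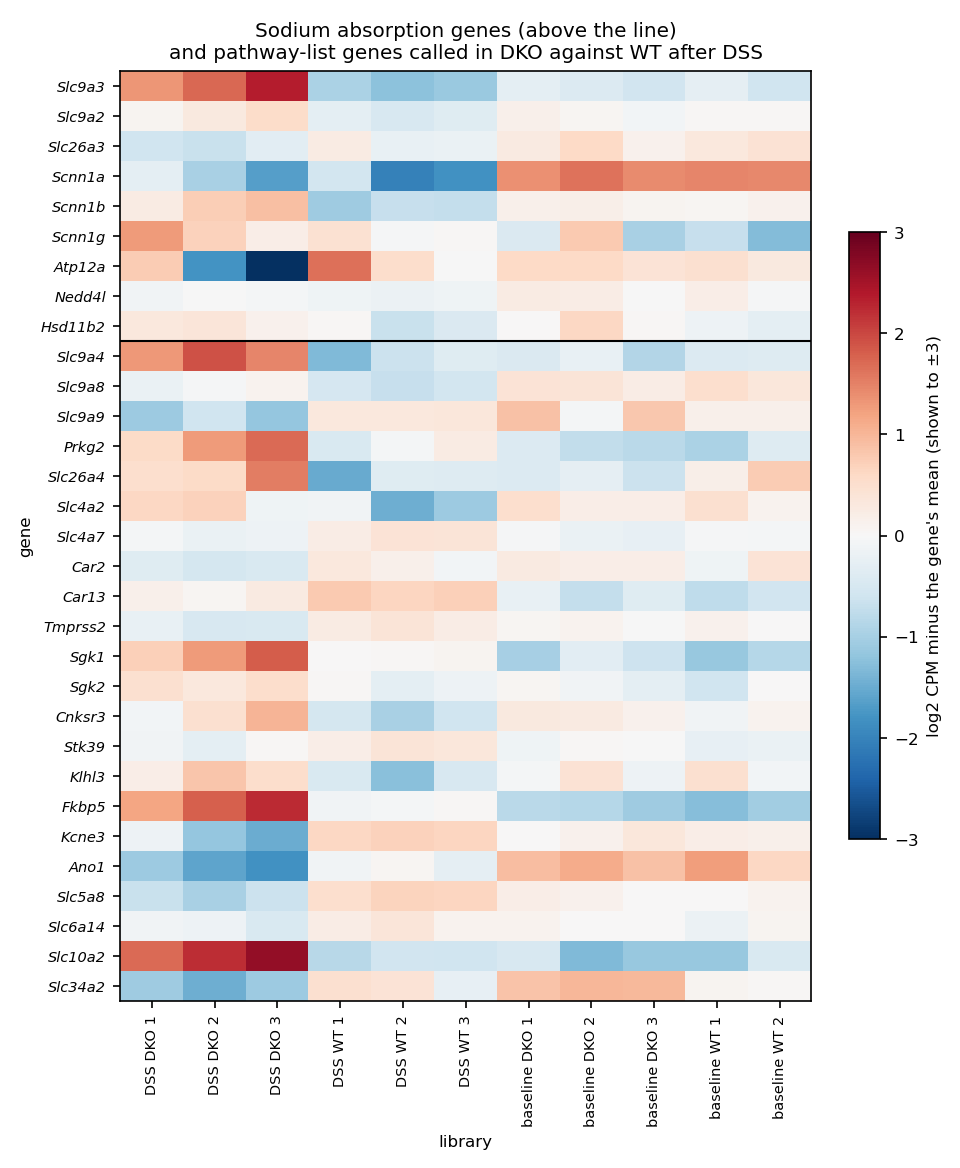
Log2 CPM (colour, shown to ±3) of the 9 genes and of the 22 list genes called in DKO against WT after DSS, centred on each gene's mean over the 11 libraries (red higher, blue lower, columns are libraries). Slc9a3, Slc10a2, Fkbp5 and Sgk1 are high in all 3 DSS DKO columns, and Scnn1a is low in all 6 DSS columns.

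DSS against baseline in WT, where 33.4% of all genes were called, gave calls in every list. Exchangers and partners had 1 of 14 higher and 5 lower, among them Slc9a8 (log2 fold change -1.01, adjusted p = 0.000304), the scaffold Slc9a3r2 (-2.17, adjusted p = 0.00493) and Chp2 (-0.73, adjusted p = 0.0065, and 0.0789 without baseline WT replicate 2). Mineralocorticoid genes had 7 of 19 higher and 3 lower. Nr3c1 and Tsc22d3, a glucocorticoid-induced factor, rose by 0.87 and 1.09 (adjusted p = 0.000838 and 0.00144), while Wnk4, a kinase of salt transport control, fell by 2.46 on the log2 scale (adjusted p = 0.000865). Nr3c2 fell, with means of 121.8 CPM in DSS WT and 164.7 CPM in baseline WT (adjusted p = 0.0249, called in 7 of 11 leave-outs). In DKO its means were 113.2 CPM after DSS and 159 CPM at baseline (adjusted p = 0.0122, called in 10 of 11 leave-outs). Cftr rose (0.83, adjusted p = 0.00316) and the chloride secretion list had 3 of 12 higher and 3 lower.

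The remaining lists in WT had 1 of 10 sodium pump genes higher and 1 lower, 2 of 13 anion exchanger and bicarbonate genes higher and 2 lower, 3 of 8 ENaC proteases and inhibitors higher and 2 lower, and 1 of 8 nutrient carriers higher and 1 lower. In DKO, where 23.6% of all genes were called, the exchanger list had 3 of 14 higher and 6 lower, and Sgk1 (log2 fold change 1.96, adjusted p = 0.000673) and Fkbp5 (2.71, adjusted p = 2.54e-05) rose. Both also rose in WT, by 1.03 (adjusted p = 0.0197) and 1.11 (adjusted p = 0.00555), with the call of Fkbp5 lost without baseline WT replicate 1 (adjusted p = 0.0673) and that of Sgk1 without either baseline WT replicate or DSS WT replicate 3. In DKO the counts were 1 higher and 0 lower for the pump, 3 and 3 for anion exchangers and bicarbonate supply, 0 and 4 for ENaC proteases and inhibitors, 6 and 2 for mineralocorticoid genes, 3 and 3 for chloride secretion and 2 and 3 for nutrient carriers.

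Genes whose levels ran most like those of a member across the 11 libraries were looked up by Pearson's r of log2 CPM among 11178 other genes whose log2 CPM averaged 1 or more (11179 for Scnn1g). The libraries form separate groups, which raises such values, and r is given as a description. Slc9a3 ran closest to Zbtb16 (0.975), Xpnpep2 (0.973) and Coro2a (0.97), and Slc9a2 to Acvrl1 (0.97), Cnksr3 (0.965) and Elac1 (0.959). Scnn1b ran closest to Hnrnpa1 (0.961), Pbld2 (0.957) and Tmem181a (0.957), and Scnn1g to Csf1r (0.902), a macrophage receptor, Map3k3 (0.879) and C3 (0.874). Slc26a3 ran closest to Cyp2c68 (0.959), Mroh2a (0.951) and Adam22 (0.951), and Atp12a to Slc23a4 (0.975), the water channel Aqp4 (0.966) and Pank1 (0.965).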

How the data were processed

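Gene counts were deposited by the authors as 1 table of whole-number counts of 54513 genes in 11 libraries. STAR and mm10 are named per the submitters' processing notes, while the counting tool, its annotation and any use of strand were not given in the sources used here. Columns were matched to samples by their titles. Counts were filtered (filterByExpr, minimum count 10), scaled by TMM and fitted over all 4 groups with edgeR 4.0.16 in R 4.3.3 (robust quasi-likelihood F-test, Benjamini-Hochberg adjustment over 19267 genes, threshold 0.05), with no covariate. The standard error is the log2 fold change divided by the root of F. Alternatives were DESeq2 1.42.0 and its size factors, other filters, the 2 groups of a comparison alone, other scalings, a replicate block and leaving out each library. Lengths and untranslated regions came from GENCODE M21 on GRCm38. Its symbols matched 50674 of the rows. Promoters and microRNAs came from RefSeq on GRCm38.p6.

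The 9 genes and all lists were chosen with earlier results of these data known. No list was changed after its genes were tested. Of each list the text names up to 4 called genes with the lowest adjusted p and genes of textbook role in salt transport. Same-numbered libraries of different groups deviated together with r above 0.1 in 4 of 15 pairs, and differently numbered ones in 3 of 30. The highest values were between DSS WT and DSS DKO, 0.302 for replicate 1 and 0.201 for replicate 3. The labels give no shared mouse or day, so replicate numbers were not taken to pair libraries. Whether same-numbered libraries share a batch was not tested. No replicates agreed within sampling noise.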

Additional observations from a re-analysis of the deposited data

Results flagged for a closer look

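Flagged here are 7 genes whose change with DSS differed between the genotypes in the measured values, with no test for Slc9a3 and Scnn1b. Slc9a3 had an interaction of 2.95 and Scnn1b one of 1.44 on the log2 scale. In DKO every DSS library lay above every baseline library of both genes, and in WT every DSS library lay below every baseline library. No p-value is given and the difference counts here as not tested for both, because the genes were chosen with these libraries in view.

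For 5 list genes the interaction passed the threshold of edgeR's quasi-likelihood test, as it did for 1.57% of all genes tested. Sex pattern and DSS cannot be told apart in these interactions. Slc10a2 had a log2 interaction of 3.08 (adjusted p = 0.0123, and 0.0675 without baseline WT replicate 2), Slc9a4 of 2.52 (adjusted p = 0.0411, and 0.143 without baseline WT replicate 1) and Fkbp5 of 1.59 (adjusted p = 0.0312, and 0.107 without baseline WT replicate 1). Slc34a2 had -2.33 (adjusted p = 0.00912) and Slc5a8 had -1.42 (adjusted p = 0.00811), each with 0.0621 without baseline WT replicate 1. Of these 5 calls, 0 were made in every alternative.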

How the results depend on the processing

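Baseline WT had 2 libraries and several baseline differences of the members were near 0, so their sign changed with the processing. At baseline the log2 fold change of Slc9a3 was 0.002 with TMM without ribosomal RNA rows and 0.003 with no filter. With libraries scaled to equal epithelial markers it was -0.22 for Slc9a2, -0.21 for Scnn1a, -0.20 for Scnn1b, -0.099 for Atp12a and -0.17 for Nedd4l, and DSS against baseline in WT was 0.01 for Nedd4l and 0.11 for Hsd11b2. At baseline Slc9a2 was also -0.005 with a minimum count of 50. Without baseline DKO replicates 1 and 2, left out after seeing their ribosomal RNA, Slc9a2 was -0.12, Scnn1a -0.03, Scnn1b -0.012, Scnn1g -0.009 and Nedd4l -0.094. For DSS against baseline in DKO, the epithelial scaling gave Slc9a8 0.088, Prss8 0.048, Tmprss2 0.012 and Kcnk5 0.004. Leaving out 1 library gave baseline ranges of -0.15 to 0.18 for Slc9a3, -0.044 to 0.079 for Slc9a2, -0.05 to 0.074 for Scnn1a, -0.18 to 0.061 for Slc26a3 and -0.02 to 0.19 for Nedd4l, and in WT after DSS -0.13 to 0.80 for Atp12a and -0.34 to 0.044 for Hsd11b2. The cause was not tested.

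Counts of all genes called were 1013 higher and 1152 lower in DKO against WT after DSS, 2 and 3 at baseline, 3260 and 3172 for DSS in WT, 2430 and 2115 for DSS in DKO, and 149 and 153 for the interaction. With no filter the after-DSS higher count was 1807, the baseline counts 53 and 26, and the interaction counts 764 and 705. With the 2 groups alone the higher counts were 536 after DSS and 1391 for DSS in DKO. DESeq2 gave 9 and 7 at baseline and 556 and 703 for the interaction. The epithelial scaling, which moved the median of all genes by -0.242 at baseline, 0.248 for DSS in WT, 0.457 for DSS in DKO and 0.212 for the interaction, gave 0 and 5 at baseline, 7205 and 1156 for DSS in DKO, and 306 higher for the interaction. It took the share of calls that were higher to 86.2% in DKO, against 53.5%, to 66.8% in WT, against 50.7%, and to 73% for the interaction, against 49.3%. Without baseline DKO replicates 1 and 2 the counts were 0 and 1 at baseline, 399 and 558 for DSS in DKO and 20 and 66 for the interaction. Leaving out 1 library gave 344 to 1426 higher and 347 to 1638 lower after DSS (lowest without DSS DKO replicate 2, highest without DSS DKO replicate 1), 0 to 3 and 1 to 3 at baseline, 1439 to 3599 and 1336 to 3779 for DSS in WT, 1375 to 2743 and 1230 to 3045 for DSS in DKO, and 1 to 675 and 1 to 823 for the interaction.

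With the replicate block, the baseline count was 1 higher, the baseline log2 fold change was -0.003 for Slc9a2 and -0.015 for Scnn1b, and the after-DSS counts were 1087 and 1149. Same-numbered libraries deviated with r of -0.0705 to 0.302 and differently numbered ones with r of -0.303 to 0.198. The block itself is no evidence for or against pairing.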
